A study of Homo sapiens with 6 samples.

Results

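Homologous recombination and Fanconi anemia genes were read in MDA-MB-453 cells cultured with or without 25-hydroxyvitamin D (25(OH)D). The members were 34 genes chosen by name and by the known role of their proteins, with earlier results of these data known. All 34 were found among the 33451 genes in the count table, MRE11 under its older symbol MRE11A. They are BRCA1, BRCA2, PALB2 and BARD1; the strand invasion paralogs RAD51B, RAD51C, RAD51D, XRCC2 and XRCC3; RAD52, RAD54L, RAD54B and BLM; RBBP8, MRE11, RAD50 and NBN; the checkpoint kinases ATM, ATR, CHEK1 and CHEK2; the Fanconi core genes FANCA, FANCB, FANCC, FANCE, FANCF, FANCG, FANCL and FANCM with the ubiquitin-conjugating enzyme gene UBE2T; FANCD2 and FANCI; and BRIP1 and SLX4. These cells are a human breast cancer line in long use, so all values come from 1 line grown in DMEM with fetal bovine serum. The experimental group (EG) received 100 nM 25(OH)D, the main circulating form of vitamin D, and the control group (CG) received the alcohol in which it was dissolved. Both groups were cultured for 5 days, and each gave 3 libraries of polyadenylated RNA. The libraries are called biological replicates in the study, but how the cultures were separated is not given in the sources used here, so the p-values measure the spread between these libraries.

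Homologous recombination repairs a broken chromosome by copying the intact sister chromatid, which exists only after replication. The broken ends are trimmed to expose a strand, BRCA2 and its partners help a protein filament to assemble on it, and the filament, with the help of the paralogs and the RAD54 motors, searches for and invades the matching sequence. The Fanconi anemia pathway acts on crosslinks that join the strands of DNA and stop replication forks: a core complex recognises the lesion, attaches ubiquitin to the FANCD2-FANCI pair with the help of UBE2T, and so recruits nucleases and the recombination proteins. Inherited defects in many of these genes predispose to breast and ovarian cancer or cause Fanconi anemia, and many of them are transcribed mostly in cells that are replicating their DNA.

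The 6 libraries held between 33268860 and 40928176 counts. The 8 luminal markers read (FOXA1, SPDEF, XBP1, GATA3, KRT8, KRT18, KRT19 and ERBB2) were all present, with a summed level of 3543 to 3683 RPKM in control and 2557 to 2668 RPKM in 25(OH)D libraries (RPKM is counts divided by exon length and by the library total). ESR1 and PGR together stayed at or under 0.021 RPKM, the 4 basal markers at or under 0.518 RPKM, and of 8 fibroblast, endothelial and leukocyte markers only COL1A1 reached 1 RPKM. Mitochondrial genes took 7.85 to 7.99% of the counts in control and 8.89 to 9.24% in 25(OH)D libraries, and the part of these shifts in the results on the members was not tested.

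In the plain count of reads, the 34 genes together took 0.164, 0.168 and 0.169% of the control counts and 0.143, 0.142 and 0.141% of the 25(OH)D counts. All 3 treated libraries thus lay below all 3 control libraries. All 34 genes passed the low-count filter, the lowest count of any member in any library being 71, for FANCB. Of the 34, 19 fell, 1 rose and 14 did not pass an adjusted p of 0.05 (edgeR's quasi-likelihood test, Benjamini-Hochberg adjustment over the 18183 genes tested, here called the edgeR adjusted p). Over all genes tested, 33.8% were called, 17.3% higher and 16.5% lower, against 58.8% of the members, 2.94% higher and 55.9% lower. The median log2 fold change of the members was -0.25 (quartiles -0.38 and -0.17), against -0.01 over all genes tested. The libraries of both groups did not overlap for 28 of the 34 members, or 82.4%, against 45.7% of all genes tested. As the members were chosen with earlier results of these data known, these shares are descriptions.

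The falls were moderate. Among the 19 genes that fell, the loss ran from 10.7% for RAD50 to 39.1% for XRCC2, so no fall reached a log2 fold change of -1. FANCE was the single member that rose and the single member past an absolute log2 fold change of 1 with an unadjusted p under 0.05, a limit that 6.65% of all genes tested passed and 4.02% passed upward. Of the 14 genes that were not called, 5 had an unadjusted p under 0.05 and 8 had libraries that did not overlap between the groups. Over all 18183 genes tested, 6142 were called and 7682 had an unadjusted p under 0.05, called genes included. The share without overlap among all genes not called was not read. Counted per role, 2 of 4 BRCA genes, 3 of 5 strand invasion paralogs, 3 of 4 genes of the RAD52, RAD54 and BLM group, 2 of 4 end resection genes, 2 of 4 checkpoint kinases, 3 of 9 Fanconi core and UBE2T genes, and all of FANCD2, FANCI, BRIP1 and SLX4 fell.

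**Figure D1:**
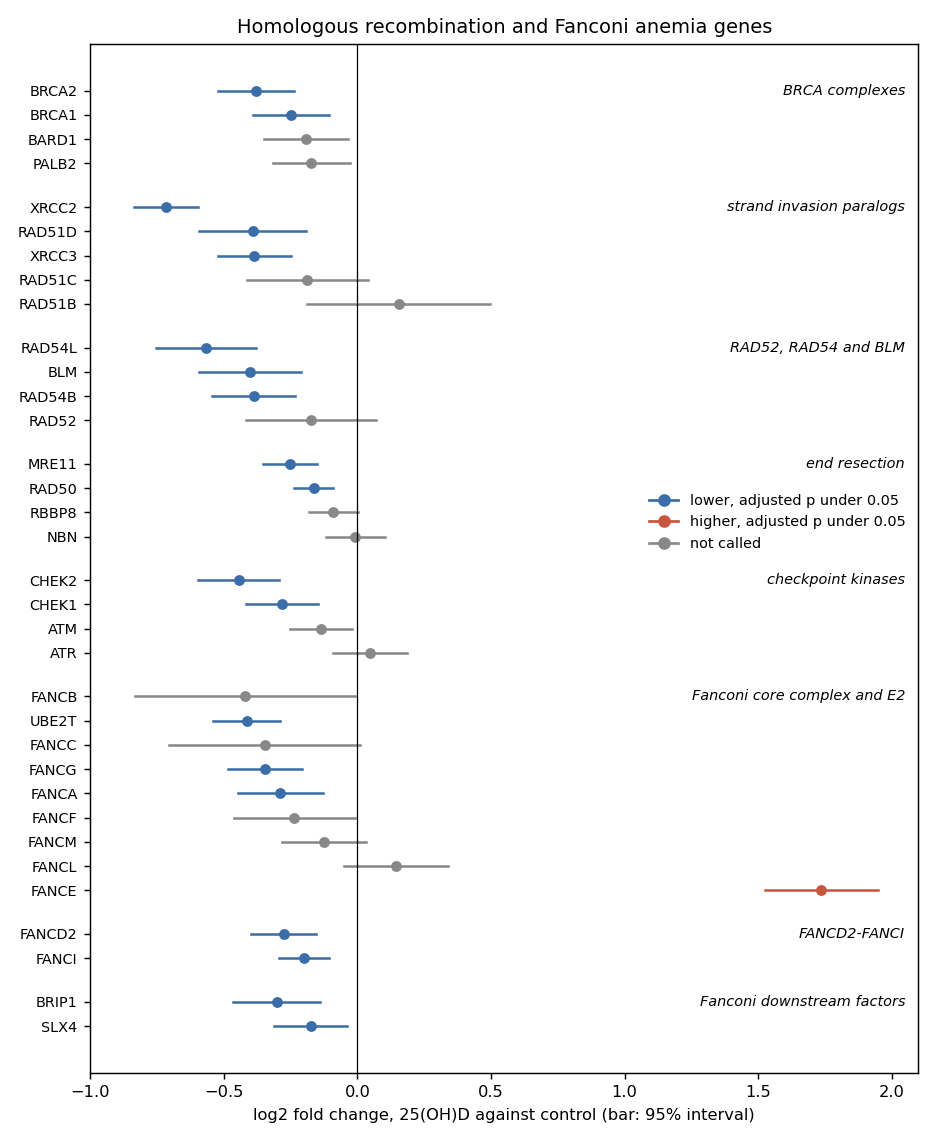
Log2 fold change of 25(OH)D against control for the 34 genes, grouped by role, with the 95% interval of the edgeR fit as a bar; blue points fell and red rose at an adjusted p under 0.05, grey points were not called. FANCE stands alone at 1.74, while 30 of the 34 points lie below 0 and XRCC2 lies lowest at -0.72.

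FANCE, which codes for the core complex subunit that binds FANCD2, lies on the plus strand of chromosome 6 (GRCh38 chr6:35452361-35467103), with 2554 bases of merged exons in 10 blocks. Its raw counts were 356, 422 and 426 in control and 1249, 1283 and 1145 in 25(OH)D libraries. Scaled by library, as CPM (counts over the library total, with TMM factors), these were 8.54, 11.1 and 11.6 against 35.5, 33.3 and 35.1. The lowest treated library was thus well above the highest control library. FANCE rose by 1.74 on the log2 scale (SE 0.0982, 95% interval 1.53 to 1.95, edgeR adjusted p = 5.56e-09), or 3.33-fold, which ranked it 314 among the 18183 genes tested by log2 fold change. Per length, its level went from 4.14 ± 0.639 to 13.4 ± 0.359 RPKM (SD, n = 3). With any 1 library left out, its log2 fold change stayed between 1.62 and 1.82 and its call was kept.

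The other core genes were lower or were not called. FANCG and FANCA code for the scaffold pair of the core complex that also holds FAAP20. FANCG measured 31.8, 33.0 and 32.2 CPM in control and 25.6, 26.7 and 24.01 CPM in 25(OH)D libraries, and fell by 0.35 on the log2 scale (SE 0.0644, edgeR adjusted p = 0.000758). FANCA measured 24.7, 24.9 and 25.8 CPM against 22.5, 19.96 and 19.3 CPM, a log2 fold change of -0.29 (SE 0.0738, edgeR adjusted p = 0.00746). For both genes every treated library was below every control library. UBE2T, the ubiquitin-conjugating enzyme that works with the FANCL ligase, measured 52.2, 48.9 and 53.7 CPM in control and 40.4, 37.9 and 37.9 CPM in 25(OH)D libraries. It fell by 0.41 on the log2 scale (SE 0.0584, edgeR adjusted p = 6.92e-05), with no overlap, and it had the highest level per length of all 34 genes in control, 49.2 RPKM.

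FANCL, the ligase itself, read 10.8, 11.6 and 11.5 CPM in control and 11.6, 12.6 and 13.4 CPM in 25(OH)D libraries, and its log2 difference of 0.15 did not pass (SE 0.0904, edgeR adjusted p = 0.244). FANCC and FANCF code for the subunits that sit beside FANCE in the complex. FANCF read 7.58, 8.51 and 8.36 CPM against 6.99, 7.07 and 6.68 CPM, and FANCC 4.78, 4.15 and 4.15 CPM against 3.75, 2.70 and 3.86 CPM. The libraries of both genes did not overlap, yet their log2 differences of -0.24 and -0.35 were not called (edgeR adjusted p = 0.105 and 0.129). FANCB, at 3.16 ± 0.507 CPM in control and 2.36 ± 0.373 CPM in 25(OH)D libraries (SD, n = 3), overlapped between the groups (log2 fold change -0.42, 95% interval -0.83 to -0.01, edgeR adjusted p = 0.111). FANCM, the DNA translocase that anchors the complex, also overlapped, at 22.9 ± 1.35 against 20.9 ± 1.002 CPM (log2 fold change -0.12, edgeR adjusted p = 0.218).

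Since FANCE, FANCC and FANCF belong to 1 subcomplex, their levels were also read as ratios of RPKM within each library, which do not depend on library scaling. These ratios were chosen after the rise of FANCE was seen and carry no test. FANCE stood at 1.88, 2.19 and 2.31 times FANCF in the control and at 8.49, 7.88 and 8.78 times FANCF in the 25(OH)D libraries. Against FANCC, the mean ratio went from 8.83 ± 2.00 to 37.6 ± 6.48 (SD, n = 3). In control, FANCE was below FANCG and FANCL, with ratios of 0.456 ± 0.0668 and 0.867 ± 0.105 (SD, n = 3). In 25(OH)D libraries it was above both, at 1.93 ± 0.153 and 2.63 ± 0.237. FANCE thus moved from below to above both genes, whereas the ratio of FANCA to FANCG overlapped between the groups (log2 difference 0.06, exact p = 0.6).

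**Figure D2:**
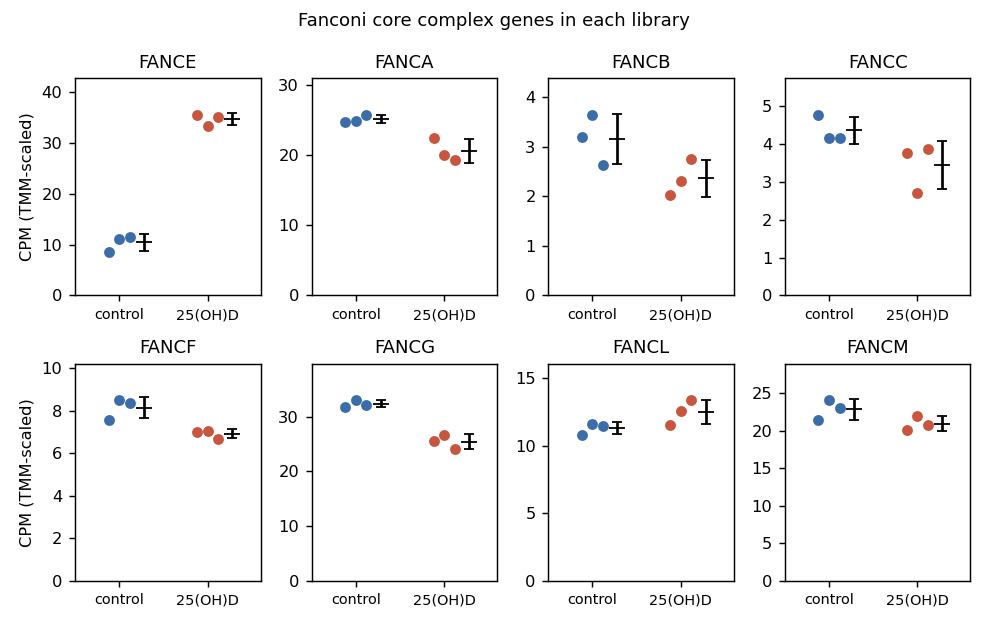
TMM-scaled CPM of the 8 Fanconi core genes in each library, 3 control (blue) and 3 25(OH)D libraries (red) per panel, with the mean and SD beside the points; each vertical axis starts at 0. The 3 treated FANCE libraries sit between 33.3 and 35.5 CPM, all above the control libraries at 8.54 to 11.6 CPM, while FANCG and FANCA sit lower after treatment.

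The genes around FANCE were read beside it, without a test of the difference. Of 21 other genes listed within 500 kb of FANCE, 10 were tested. FKBP5 (log2 fold change 0.14, edgeR adjusted p = 0.0182) and RPL10A (0.13, edgeR adjusted p = 0.0494) rose, PPARD fell by 0.37 on the log2 scale (edgeR adjusted p = 3.36e-05), and the other 7 were not called. The log2 fold changes of the 10 ran from -0.45 to 0.14. FANCE shared no exon bases with any other gene of the table, and so its reads had no second gene to be assigned to by position.

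**Figure D3:**
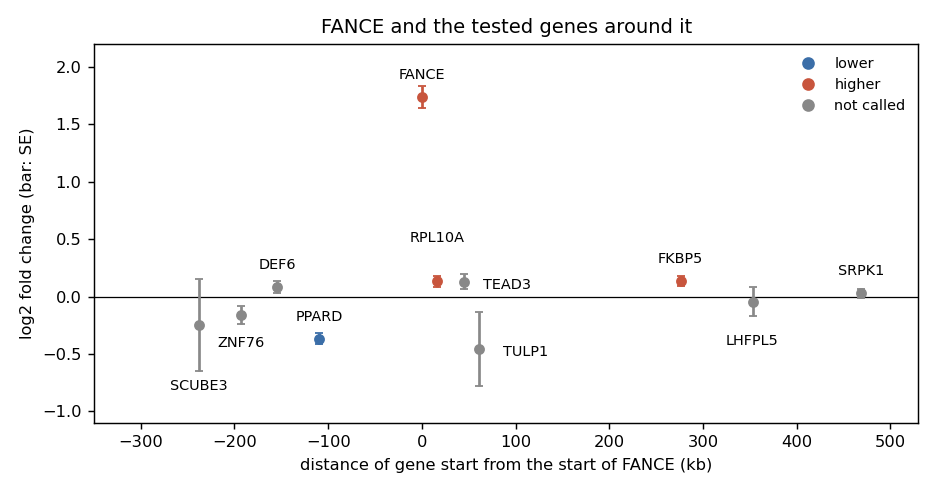
Log2 fold change (bar: SE) of FANCE and the 10 tested genes within 500 kb, against the distance in kb of each gene's start from that of FANCE. FANCE lies at 1.74 and its neighbours between -0.45 and 0.14.

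The 250 bases before the RefSeq start of FANCE and of the 3 members that fell most are shown here, read 5′ to 3′ on the strand of the gene (RefSeq, GRCh38.p14), to set the upstream sequence of the gene that rose beside those of genes that fell. Capitals mark CCAAT boxes, which on these strands all read ATTGG.
FANCE, chr6:35452088-35452337, plus strand: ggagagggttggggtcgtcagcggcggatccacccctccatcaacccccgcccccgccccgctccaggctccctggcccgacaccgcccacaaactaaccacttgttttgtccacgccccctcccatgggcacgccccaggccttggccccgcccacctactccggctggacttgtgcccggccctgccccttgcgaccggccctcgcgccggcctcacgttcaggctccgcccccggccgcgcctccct
XRCC2, chr7:152676142-152676391, minus strand: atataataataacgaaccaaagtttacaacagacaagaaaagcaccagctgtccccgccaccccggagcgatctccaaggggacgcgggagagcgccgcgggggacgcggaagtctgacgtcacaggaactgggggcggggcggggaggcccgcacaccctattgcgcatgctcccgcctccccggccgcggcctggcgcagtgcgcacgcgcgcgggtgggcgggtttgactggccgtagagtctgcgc
RAD54L, chr1:46247438-46247687, plus strand: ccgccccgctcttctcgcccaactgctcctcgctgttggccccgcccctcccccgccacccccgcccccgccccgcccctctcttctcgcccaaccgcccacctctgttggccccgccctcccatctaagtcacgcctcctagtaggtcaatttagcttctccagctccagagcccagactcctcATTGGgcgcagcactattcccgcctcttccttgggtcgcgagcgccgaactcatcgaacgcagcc
CHEK2, chr22:28741821-28742070, minus strand: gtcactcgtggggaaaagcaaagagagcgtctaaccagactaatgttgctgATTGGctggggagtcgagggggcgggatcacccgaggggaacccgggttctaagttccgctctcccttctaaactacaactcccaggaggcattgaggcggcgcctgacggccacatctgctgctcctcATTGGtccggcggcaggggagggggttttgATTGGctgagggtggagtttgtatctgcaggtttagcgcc
The FANCE window was 73.6% G and C, against a median of 64.4% in the 31 members with a RefSeq promoter and 58.0% in all 35116 promoters. It held none of the motifs searched, which are given further on, and neither did the XRCC2 window hold a CCAAT box. RAD54L had 1 CCAAT box, 65 to 61 bases before the start, and CHEK2 had 3. The RefSeq start of CHEK2 lay 602 bases from the start of the gene in the count table, while those of FANCE, XRCC2 and RAD54L lay 23, 24 and 0 bases from it.

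The strand invasion paralogs help the filament to form and stay on DNA. XRCC2 (GRCh38 chr7:152644779-152676165, minus strand) measured 46.7, 45.8 and 47.1 CPM in control and 28.1, 29.0 and 27.8 CPM in 25(OH)D libraries. The treated libraries formed a narrow group far below the controls. The fall of 0.72 on the log2 scale (SE 0.0559, 95% interval -0.84 to -0.60, edgeR adjusted p = 1.85e-07) left 0.609 of the control level, and per length XRCC2 went from 9.73 to 5.74 RPKM. Its partner in the complex of 4 paralogs, RAD51D, measured 12.1, 11.8 and 13.6 CPM against 9.18, 9.88 and 9.41 CPM, with no overlap, and fell by 0.39 on the log2 scale (SE 0.0936, edgeR adjusted p = 0.00468). XRCC3, the partner of RAD51C, measured 34.5, 33.2 and 34.4 CPM against 25.3, 27.6 and 25.3 CPM and also fell without overlap, by 0.39 (SE 0.0635, edgeR adjusted p = 0.000275). RAD51C itself did not pass, at 8.48 ± 0.172 CPM in control and 7.44 ± 0.624 CPM in 25(OH)D libraries (SD, n = 3; log2 fold change -0.19, edgeR adjusted p = 0.196). RAD51B, among the lowest members at 0.542 RPKM in control, overlapped between the groups (log2 fold change 0.15, 95% interval -0.19 to 0.50, edgeR adjusted p = 0.503), an interval that leaves room for a fall or a rise.

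RAD54L and RAD54B code for DNA motors that act in the search for matching sequence, and BLM for a helicase that dissolves joined molecules. RAD54L (GRCh38 chr1:46247688-46278473, plus strand) measured 13.9, 15.1 and 14.7 CPM in control and 10.3, 9.98 and 9.20 CPM in 25(OH)D libraries, a fall of 0.57 on the log2 scale (SE 0.0873, edgeR adjusted p = 0.000155). RAD54B measured 21.9, 22.8 and 24.1 CPM against 18.1, 16.7 and 17.8 CPM and fell by 0.39 (SE 0.0727, edgeR adjusted p = 0.000791). BLM measured 18.8, 15.5 and 18.6 CPM against 13.6, 13.4 and 13.0 CPM and fell by 0.40 (SE 0.0893, edgeR adjusted p = 0.00283). All 3 genes were lower in every treated library, and BLM had 1 control library, the second, nearer to the treated values than the others. RAD52, which anneals complementary strands, read 6.64 ± 0.221 against 5.89 ± 0.2804 CPM (SD, n = 3) and was not called (log2 fold change -0.17, edgeR adjusted p = 0.269).

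BRCA1 and BARD1 form a ubiquitin ligase, and PALB2 bridges BRCA1 to BRCA2, which acts in filament assembly. BRCA2 measured 34.2, 36.0 and 34.6 CPM in control and 26.4, 25.4 and 28.9 CPM in 25(OH)D libraries, and fell by 0.38 on the log2 scale (SE 0.066, edgeR adjusted p = 0.000436). BRCA1 measured 37.3, 37.5 and 37.3 CPM against 33.2, 28.8 and 32.5 CPM, a log2 fold change of -0.25 (SE 0.0656, edgeR adjusted p = 0.00891). The control libraries of BRCA1 were nearly level and the second treated library was the lowest. Without that treated library, the log2 fold change of BRCA1 was -0.18 and its edgeR adjusted p was 0.0666, so the call rested on it. BARD1 and PALB2 were lower in all 3 treated libraries but were not called, with log2 fold changes of -0.19 and -0.17 (edgeR adjusted p = 0.0561 and 0.0643). With library sizes alone or upper-quartile factors both were called lower.

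The MRE11, RAD50 and NBN proteins bind broken ends as 1 complex, and RBBP8, also called CtIP, starts their resection. RAD50 measured 373, 382 and 375 CPM in control and 338, 332 and 340.1 CPM in 25(OH)D libraries, and fell by 0.16 on the log2 scale (SE 0.0345, edgeR adjusted p = 0.00192), the smallest fall that was called. MRE11 measured 167, 178 and 189 CPM against 152, 148 and 149 CPM and fell by 0.25 (SE 0.047, edgeR adjusted p = 0.000802). In both genes the groups stood apart. NBN read 83.6 ± 4.70 CPM in control and 83.2 ± 1.87 CPM in 25(OH)D libraries (SD, n = 3), overlapping, with a log2 fold change of -0.01 and a 95% interval from -0.12 to 0.10 (edgeR adjusted p = 0.928). RBBP8 was lower in all 3 treated libraries, 118 ± 2.37 against 111 ± 2.76 CPM (SD, n = 3), but its log2 fold change of -0.09 was not called (edgeR adjusted p = 0.122), whereas it was with library sizes alone, upper-quartile factors and both limma fits.

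ATM and ATR are the kinases that sense breaks and stalled forks, and CHEK2 and CHEK1 are the kinases they switch on. CHEK2 (GRCh38 chr22:28687743-28742422, minus strand) measured 26.3, 26.4 and 29.2 CPM in control and 20.7, 20.1 and 19.4 CPM in 25(OH)D libraries, a fall of 0.44 on the log2 scale (SE 0.0704, edgeR adjusted p = 0.000198). CHEK1 measured 43.4, 44.6 and 47.9 CPM against 38.4, 35.0 and 38.4 CPM and fell by 0.28 (SE 0.0627, edgeR adjusted p = 0.0028). Both downstream kinases were thus lower in every treated library. The upstream kinases were not called: ATM read 63.4 ± 2.07 against 57.6 ± 2.87 CPM (SD, n = 3; log2 fold change -0.14, edgeR adjusted p = 0.0683; called lower with library sizes alone or upper-quartile factors), without overlap, and ATR 24.5 ± 0.516 against 25.3 ± 0.694 CPM, with overlap (log2 fold change 0.05, 95% interval -0.09 to 0.19, edgeR adjusted p = 0.615).

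FANCD2 and FANCI form the clamp that the core complex marks with ubiquitin. FANCD2 measured 37.2, 36.5 and 37.0 CPM in control and 29.9, 30.8 and 30.7 CPM in 25(OH)D libraries, and fell by 0.28 on the log2 scale (SE 0.0569, edgeR adjusted p = 0.00165). FANCI measured 139, 143 and 145 CPM against 129.7, 122 and 119.7 CPM and fell by 0.20 (SE 0.0441, edgeR adjusted p = 0.00277). In both, the highest treated library was below the lowest control library. Downstream of them, BRIP1, a helicase that binds BRCA1, measured 28.4, 31.8 and 28.2 CPM against 25.3, 24.3 and 22.02 CPM and fell by 0.30 (SE 0.0752, edgeR adjusted p = 0.0062). SLX4, the scaffold for crosslink nucleases, stood just inside the threshold, at 53.5, 53.1 and 57.3 CPM against 46.5, 52.8 and 45.9 CPM (log2 fold change -0.17, SE 0.0637, edgeR adjusted p = 0.0486). Its second treated library lay next to the controls, and its call was lost in 9 of the 14 alternative settings, with an edgeR adjusted p of 0.0563 under median-of-ratios factors.

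**Figure D4:**
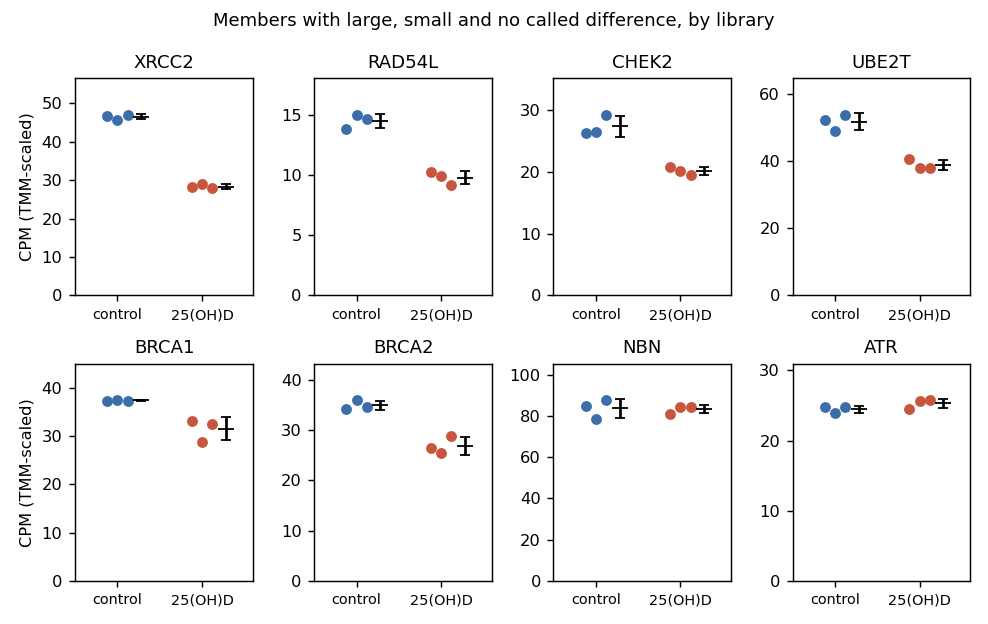
TMM-scaled CPM per library for 8 of the genes, 3 control (blue) and 3 25(OH)D libraries (red) in each panel, with the mean and SD beside the points and axes from 0. XRCC2 shows the widest gap (46.5 against 28.3 CPM), BRCA1 has 1 treated library below the other two, and the groups overlap for NBN and ATR.

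Because proteins of these pathways work in pairs, the ratio of RPKM of 12 pairs of partners was compared between the groups within libraries. With 3 libraries against 3, the two-sided exact permutation test cannot go below p = 0.1, and no pair could therefore pass 0.05. The ratio of UBE2T to FANCL was 10.98, 9.50 and 10.6 in control and 7.91, 6.82 and 6.41 in 25(OH)D libraries, a difference of -0.56 on the log2 scale. CHEK1 to ATR went from 3.33, 3.56 and 3.69 to 2.99, 2.60 and 2.83, and CHEK2 to ATM from 2.30, 2.17 and 2.50 to 1.86, 1.85 and 1.92. In these 3 pairs the gene named first had the more negative log2 fold change. RAD51D to XRCC2 moved upward, from 0.111, 0.110 and 0.124 to 0.140, 0.146 and 0.145, XRCC2 having the larger fall. These 4 pairs, with BRCA2 to PALB2 (log2 difference -0.21), RAD51C to XRCC3 (0.19) and NBN to RAD50 (0.16), were the 7 pairs without overlap between groups, each with an exact p of 0.1 and 0.171 after Benjamini-Hochberg adjustment over the 12 pairs. The ratios of the other 5 pairs overlapped: BRCA1 to BARD1, MRE11 to RAD50, RAD51B to RAD51C, FANCD2 to FANCI and FANCA to FANCG, with log2 differences of -0.06, -0.09, 0.35, -0.08 and 0.06. How often ratios of gene pairs outside these 12 do not overlap was not read. Taken as single genes, 45.7% of all genes tested did not overlap between the groups.

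Some members share exon bases with another gene of the table, so that their reads could be split between them. The library kit was stranded, but the strand setting of the counting is not given in the sources used here. XRCC3 shared 76.7% of its exon bases with KLC1 on the opposite strand, RAD54L 25.1% with LRRC41 and FANCA 23.6% with ZNF276, also on the opposite strand. KLC1, LRRC41 and ZNF276 were not called, with log2 fold changes of -0.11, -0.04 and -0.02 (edgeR adjusted p = 0.513, 0.654 and 0.858). RAD54B shared 51.3% of its exon bases with FSBP on the same strand, and FSBP fell by 0.36 (edgeR adjusted p = 0.00252), so reads of these 2 genes cannot be told apart by position. Without these 4 members, 15 of 30 fell and 1 rose.

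The remaining genes of recombination and the Fanconi pathway were read from a list of 64. Of these, 18 fell and 1 rose, with a median log2 fold change of -0.11. In all, 29.7% were called, under the 33.8% of all genes tested, and 28.1% fell, against 16.5% of all genes tested. EME1, a subunit of a nuclease that cuts joined molecules, and RAD51AP1, which acts in strand invasion, fell by 0.61 and 0.52 (edgeR adjusted p = 2.37e-06 and 4.18e-06). BRCC3, a deubiquitinating enzyme of a BRCA1 complex, was the gene that rose, from 202, 208 and 201 CPM to 226, 230.4 and 219.5 CPM (log2 fold change 0.15, edgeR adjusted p = 0.00819), but it was not called with library sizes alone, with upper-quartile factors or by limma. By role, 5 of 14 strand exchange partners, 1 of 8 resection and dissolution genes, 3 of 13 Fanconi partners, 3 of 8 nuclease genes and 6 of 21 genes of chromatin signalling at breaks fell.

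The competing routes that join ends without a template were described by 16 genes, of which 7 fell and 1 rose (median log2 fold change -0.17). These were 43.8% lower and 6.25% higher, against 16.5% and 17.3% of all genes tested. POLQ, the polymerase of theta-mediated joining, fell by 0.38 on the log2 scale (edgeR adjusted p = 0.000199), XRCC1, a scaffold of strand break repair, by 0.31 (edgeR adjusted p = 0.000661) and PRKDC, the catalytic subunit of DNA-PK, by 0.19 (edgeR adjusted p = 0.000541). APTX, which cleans blocked ends, was the gene that rose, with a log2 fold change of 0.23 (edgeR adjusted p = 0.000944). A fall was thus not limited in these data to genes of recombination, and no difference between the lists was tested.

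Genes of the cell cycle moved beside the members. Of 37 S phase genes, 23 fell and the other 14 were not called (edgeR; median log2 fold change -0.20), and their summed level went from between 3868 and 3992 CPM in control to between 3319 and 3387 CPM in 25(OH)D libraries. UHRF1, MCM3 and GINS4, which act in DNA methylation upkeep and at the replication fork, fell by 0.41, 0.39 and 0.85 (edgeR adjusted p = 1.79e-06, 5.09e-06 and 2.67e-06). Of 28 genes of G2 and mitosis, 27 fell and CDC20, named after its value was seen, was not called, at a log2 fold change of 0.02 (median -0.61), with a summed level of 6751 to 6964 CPM in control and 4682 to 4941 CPM in 25(OH)D libraries. CENPF, KIF23 and CCNB2, genes of the kinetochore, the midbody and the mitotic cyclin, fell by 0.71, 0.75 and 0.87 (edgeR adjusted p = 2.88e-09, 9.45e-09 and 1.03e-08). The part of these lists in the fall of the members was not tested, and in bulk RNA fewer cycling cells and less RNA per cell cannot be told apart.

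**Figure D5:**
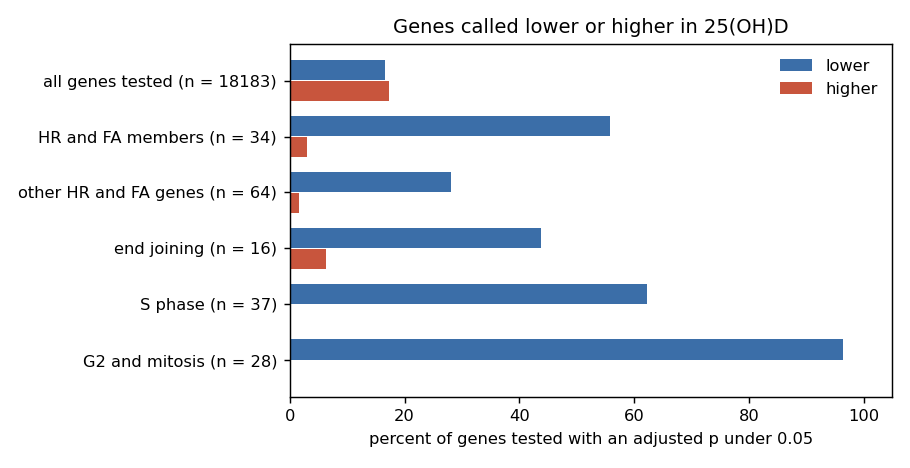
Share of genes that fell (blue) and rose (red) at an edgeR adjusted p under 0.05, in percent of the genes tested, for the 34 members, the 4 other lists and all 18183 genes tested. Of the members 55.9% fell, against 16.5% of all genes. The share was 28.1% in other recombination and Fanconi genes, 43.8% in end joining, 62.2% in S phase and 96.4% in G2 and mitosis genes.

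The members' changes were also set beside their level and length. Across the 34 genes, Spearman's rho of the log2 fold change with the control RPKM was -0.02 and with the exon length 0.15, given as a description over genes of the same 6 libraries. In control, 25 of the members lay between 1 and 10 RPKM, 3 below 1 RPKM and 6 at 10 RPKM or more, with a median of 4.32 RPKM. The 3 lowest included FANCC at 0.475 RPKM and RAD51B, neither of which was called.

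What the members shared in sequence was read from the 250 bases before the RefSeq start, available for 31 of the 34 genes (not FANCI, NBN or RAD54B). For 10 of the 31 the RefSeq start lay more than 100 bases from the start in the count table, so these windows describe 1 promoter and not necessarily the one used in these cells. Motifs were searched on both strands, and a match is a description of letters and not of binding. The ETS motif (CCGGAAGT or CCGGAAGC) was in 10 of 31 members, or 32.3%, against 6.05% of all 35116 promoters and 11.8% of the 10474 promoters of genes tested. The windows around 7 of these matches, in 6 genes from the clamp, end binding, filament assembly, dissolution and checkpoint groups, are shown in the direction of the motif, which is in capitals.
FANCD2, chr3:10026356-10026385, minus strand: caacttccgcgCCGGAAGTggaaggccggg
RAD50, chr5:132556811-132556840, plus strand: ccagcaaagatCCGGAAGTccgctgcccct
RAD50, chr5:132556875-132556904, plus strand: ccgtaccgcacCCGGAAGTcggagctgcgc
MRE11, chr11:94493984-94494013, plus strand: aggagacgaacCCGGAAGTgagatgcaagg
BRCA2, chr13:32315408-32315437, minus strand: acacgcaccacCCGGAAGTcaggcctgggt
BLM, chr15:90717142-90717171, plus strand: cccaactagctCCGGAAGCccgagatgtaa
ATR, chr3:142578810-142578839, plus strand: caaaactcctcCCGGAAGCcgctactggcc
The matches were in FANCD2, RAD50, MRE11, BRCA2, BLM, SLX4 and RAD51D, which fell, and in ATR, ATM and PALB2, which were not called. They were thus present in 7 of 17 members that fell and 3 of 13 that were not called, and ATR held the motif with a log2 fold change of 0.05. The RefSeq starts of RAD51D, RAD50 and ATM lay 1764, 958 and 583 bases from their starts in the count table. The matches of these genes lay downstream of the starts in the count table.

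CCAAT boxes (CCAAT) were in 13 of the 31 windows, or 41.9%, against 32.0% of all promoters and 35.3% of those of genes tested, with 9 of 17 in members that fell and 4 of 13 in those not called. The E2F motif (TTTCCCGC, TTTGGCGC, TTTCGCGC or TTTGCCGC) was in 2 windows, or 6.45%, against 2.79% of all and 4.33% of tested genes' promoters. These were the windows of FANCA and FANCC, and the RefSeq start of FANCC lay 109087 bases from its start in the count table. The cell cycle element CHR (TTTGAA or TTCGAA) was in 4 windows, or 12.9%, below the 14.3% of all promoters and above the 9.62% of those of genes tested. FANCC held this element too. A hexamer of the vitamin D receptor motif (spelled AGGTCA or GGGTCA, and in a second pair of spellings AGTTCA or GGTTCA) was in 8 windows, or 25.8%, against 33.8% of all promoters and 28.0% of those of genes tested, and it was in 7 of 17 members that fell and 1 of 13 that were not called. The pair of such hexamers in the same direction with 3 bases between them was in none of the 31 windows and in 0.0655% of all promoters. The FANCE window held none of these letters, and no match there says nothing of sites further away.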

How the data were processed

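Polyadenylated RNA of MDA-MB-453 cells was sequenced in 3 control and 3 25(OH)D libraries by a company for the authors. The authors deposited raw counts per gene and RPKM values, the latter equal to each count divided by exon length and library total (largest relative difference 2.23e-13). The submitters' processing notes name Trimmomatic 0.36, featureCounts of Subread 1.5.1, edgeR 3.12.1 and GRCh38. The aligner and the annotation release are not given in the sources used here. Genes without any count are not listed. With 33268860 to 40928176 counts per library, 3 counts correspond to 0.0733 to 0.0902 CPM, and any precision from depth covers counting error only.

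Counts were fitted in R 4.3.3 with edgeR 4.0.16 (filterByExpr, TMM factors, quasi-likelihood test of the treatment without covariates), with Benjamini-Hochberg adjustment over 18183 genes and a threshold of 0.05. Genes varied between replicates with a biological coefficient of variation of 0.0788. In counts simulated for this comparison (17946 genes), 100 of 100 genes changed by 1 on the log2 scale and 85 of 100 changed by 0.5 were recovered, and 8 unchanged genes were called. The simulation gave every gene the same dispersion and changed only a small part of the genes, all above a count limit. Changes under 0.5, which most called members showed, were not simulated. The test of the partner ratios was an exact permutation test, two-sided. Replicate pairs differed beyond counting noise (chi-square per gene 4.01 to 12.1), so all 6 libraries were counted separately. Replicate numbers did not pair the libraries, the correlations of same-numbered deviations being -0.07, -0.01 and -0.05. Alternatives were median-of-ratios and upper-quartile factors, library sizes alone, no filter, DESeq2 1.42.0, limma 3.58.1 on log2 RPKM with 2 pseudocounts (1 and 0.1), a replicate block, the limit on fold change and leaving out each library. Leaving out members that share more than 20% of their exon bases was added after seeing the data. Promoter sequences were from RefSeq, and Python 3.11.15 was used for the remaining steps. Named were every member, the 3 genes with the smallest p in each direction of each other list, genes sharing exon bases with a member and markers of the cell line. FANCE neighbours and ratios were added outside this rule after its value was seen. Of the genes this rule names, 1 listed gene and 1 marker are not reported here. The members and lists were chosen with earlier results of these data known.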

Additional observations from a re-analysis of the deposited data

How the results depend on the processing

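Across 14 alternatives, FANCE stayed the single member that rose, and between 18 and 23 members fell (23 with library sizes alone or upper-quartile factors, 18 with median-of-ratios factors, 19 with DESeq2). Under the limit of an absolute log2 fold change over 1 with an unadjusted p under 0.05, 0 members fell, as no fall is that large. Of 476 values of members under these alternatives, 449 kept direction and side of the threshold, 14 passed it newly, all lower (PALB2 in 5, RBBP8 in 4, BARD1 in 3 and ATM in 2, mostly with library sizes alone, upper-quartile factors or limma), 10 lost their call (SLX4 in 9, BRCA1 in 1) and 3 changed sign, all NBN, whose log2 fold change ran from -0.046 to 0.035 with a library left out and was above 0 without control replicate 1 (0.0075), control replicate 3 (0.035) or 25(OH)D replicate 1 (0.016). With the replicate number as a block, 18 members fell and 1 rose. The number of other recombination and Fanconi genes that rose was 0 with library sizes alone, upper-quartile factors and both limma fits, 2 without the low-count filter and 1 to 2 with a library left out. With a library left out, 1 to 2 end joining genes and 0 to 1 S phase genes rose. The number that fell ran from 14 to 27 for other recombination and Fanconi genes (14 to 20 with a library left out, 27 with library sizes alone), from 16 to 28 for S phase genes (16 to 21 with a library left out), from 5 to 7 for end joining genes and was 27 in each setting for G2 and mitosis genes. No alternative turned the direction of a partner ratio. The cause of these differences was not tested. FANCB, FANCC and RAD51B, at the lowest levels, had the widest intervals.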
